A study of Parasteatoda tepidariorum with 20 samples.

Results

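The genes examined here were those of the respiratory chain and ATP synthase of the spider *Parasteatoda tepidariorum*, a chelicerate used to study development, followed through embryogenesis. Gene models were taken when their description in the data table named NADH dehydrogenase [ubiquinone], NADH-ubiquinone oxidoreductase, succinate dehydrogenase, the cytochrome b-c1 complex, cytochrome c oxidase or a subunit or coupling factor of ATP synthase. This gave 76 of 27990 AUGUSTUS gene models, of which 30 were complex I subunits, 4 complex II, 5 complex III, 11 complex IV, 15 complex V (ATP synthase) and 11 assembly factors. The choice matched descriptions and used no measured value, though it was made with earlier results of these data known. It left out the gene models described as cytochrome c1 (complex III) and ATP synthase lipid-binding protein (complex V), whose values are given separately below.

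Poly(A) mRNA of whole, untreated embryos kept at 25 °C was sequenced at 10 stages in 2 series of embryos. A series was the offspring of 1 pair of parents, so that every stage had n = 2. The p-values rest on the spread between the 2 samples of a stage, pooled over the 10 stages and moderated across gene models. Samples were taken about 9 h after egg laying (stage 1, st1, 16 cells), at about 15 h (st2, 256 cells), between 20 and 21 h (st3), between 25 and 26 h (st4), between 31 and 32 h (early st5), between 36 and 37 h (late st5), between 42 and 43 h (st6), and at about 50 h (st7), 60 h (st8) and 78 h (st10). Each library pooled 10 to 100 embryos of the Osaka isolate. Levels are RPKM, read numbers divided by exon length and by the read total of the library, and so are shares of the mRNA in a library: a lower level of a transcript, fewer cells that hold it and more mRNA from other genes cannot be told apart.

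The respiratory chain passes electrons from NADH (complex I) and succinate (complex II) through complex III and cytochrome c to oxygen at complex IV, and complexes I, III and IV pump protons across the inner mitochondrial membrane. ATP synthase, complex V, uses the return of those protons to make ATP. In animals most subunits are encoded in the nucleus, and a few core subunits of complexes I, III, IV and V, COX3 among them, are encoded in mitochondrial DNA. Nuclear and mitochondrial subunits are assembled together with the help of dedicated assembly factors.

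Read totals per library, recovered from the RPKM values, ranged from 9160802 to 17019009. At an exon length of 746 bases, the median of these gene models, 3 reads were worth 0.236 to 0.439 RPKM, depending on the library. At least 1 RPKM in at least 2 libraries was required for testing, which 72 of the 76 gene models reached, with 9 or more reads in every library. The exceptions were a second NDUFA9-like model (aug3.g22034), a second cytochrome c oxidase 6A1 model (aug3.g21118), a second cytochrome c oxidase assembly factor 7 model (aug3.g4145) and a second 6C model (aug3.g724). The first 3 of these had 33, 43 and 50 reads over the 20 libraries, and aug3.g724 was listed at 0 in all of them. The st6 library of series 2 stood apart from the rest, with 92.8% of its reads on gene models against 77.5% to 88.5% in the other 19 libraries, and it is named beside results that change without it.

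In each of the 5 complexes at least 1 gene model was higher at st10 than at st1, and complexes IV and V had the largest medians. Of the 72 gene models tested, 34 were higher and 2 lower at st10 (adjusted p under 0.05, limma on log2(RPKM + 1) with Benjamini-Hochberg adjustment over 13375 gene models). These are 47.2% and 2.78% of the 72, whereas among all gene models tested 23.2% were called higher and 34.9% lower. The median difference was 0.88 on the log2 scale for these 72 and -0.24 for all gene models. Both st10 values lay above both st1 values in 53 of the 72 (73.6%), against 33.9% of all gene models tested. When the libraries were scaled to a common median ratio instead, the median of all gene models became 0.0 and that of the 72 became 1.2. Of the 72, 48 were then higher and 1 lower, against 3818 higher and 3940 lower of all 13375 gene models tested. The number of calls depended on single libraries. It fell without any 1 of the st1 and st10 libraries, most of all without the st10 library of series 1. It rose when 1 of the st6 libraries was left out.

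By complex, the median difference between st10 and st1 was 1.22 in complex IV (7 of 9 higher), 1.17 in complex V (9 of 15 higher, 1 lower), 0.88 in complex I (15 of 29 higher), 0.76 in complex III (2 of 5 higher) and 0.48 in complex II (1 of 4 higher). The assembly factors had a median of 0.06, with 0 of 10 called higher and 1 lower; with median-ratio scaling 2 of them were called higher and 1 lower. Without median-ratio scaling, the summed RPKM of the complex V subunits was 2580 and 2160 at st10 in series 1 and 2, against 1020 and 1020 at st1, a ratio of 2.32. The sum of the complex I subunits was 1830 and 1630 RPKM at st10, against 969 and 891 RPKM at st1, a ratio of 1.86. Complexes III and II had ratios of 1.61 and 1.52. Complex IV had a ratio of 1.29 with COX3-like included, 1.85 in series 2 and 0.933 in series 1, and 2.54 without it. The sums were not tested against each other.

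**Figure D1:**
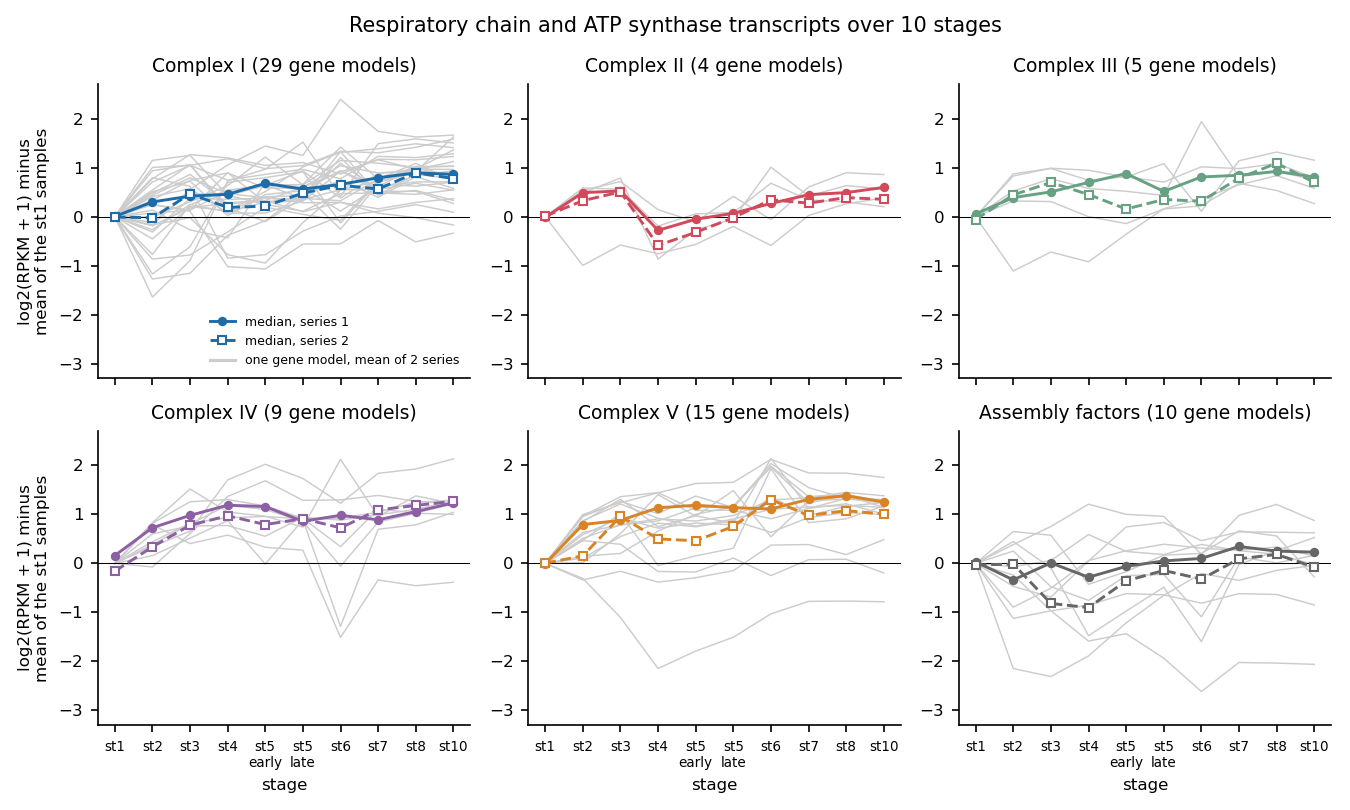
Stage profiles of the 72 gene models, in 6 panels by complex. The x axis is the stage and the y axis log2(RPKM + 1) minus the mean of the 2 st1 samples. Grey lines are single gene models (mean of both series), filled circles the median of series 1 and open squares the median of series 2. Complexes I to V have medians above 0 at st10 in both series, and complex II is below 0 at st4.

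In ATP synthase the largest rise was that of the beta subunit. The beta subunit (aug3.g7080, scaffold 15, 1245836 to 1258444, minus strand, Ptep_1.0), which carries the catalytic sites of the F1 head, had 449 and 411 RPKM at st10, against 107 and 150 RPKM at st1. Its difference was 1.76 (SE 0.26, limma adjusted p = 4.5e-05), and all libraries from st2 on lay above both st1 libraries, from 251 RPKM upwards. The alpha subunit (aug3.g3850), the partner of beta in the F1 head, had 194 and 180 RPKM at st10, against 59.4 and 99.9 RPKM at st1 (difference 1.27, SE 0.34, limma adjusted p = 0.0054). The gamma subunit (aug3.g12566), the rotating shaft, had 218 and 211 RPKM at st10, against 74.6 and 89.6 RPKM at st1 (1.38, SE 0.42, limma adjusted p = 0.011). In each of these subunits the st10 values lay above the st1 values without overlap. Without the st1 library of series 1 the calls of alpha (0.9) and gamma (1.25) were lost, and that of gamma also without the st10 library of series 1 (1.36). The subunits d, delta, O, f and g, parts of the stalks and the membrane portion, were higher at st10 as well, by 1.0 to 1.24.

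Among the gene models put in complex V by description, those described as subunit s, subunit s-like, coupling factor 6 and subunits b and e did not share this call. Whether the products of the s and s-like models are parts of ATP synthase was not examined. Subunit s (aug3.g7910, scaffold 850, 67336 to 72684, minus strand) was the only complex V gene model called lower at st10: it had 5.95 and 6.69 RPKM at st10, against 11 and 12.2 RPKM at st1 (difference -0.78, SE 0.31, limma adjusted p = 0.042). This call was lost with median ratios (-0.48), with a pseudocount of 0.1 (-0.87), with no filter, and without any single library of st1 or st10 (-0.86 to -0.71). Its lowest values were at st4, with 2.9 and 1.07 RPKM. The s-like model (aug3.g27009) had opposite differences in the series and was not called across stages (limma F test, adjusted p = 0.84). Coupling factor 6 (aug3.g18589) differed by 0.49 (SE 0.46, limma adjusted p = 0.38). The models of subunit b had differences of 1.24 (SE 0.62, limma adjusted p = 0.1, aug3.g4588) and 1.0 (SE 0.54, limma adjusted p = 0.13, aug3.g17275), not called, although aug3.g4588 was called with the series as a block, and at st10 it stood at 138 RPKM in series 2 but at 390 RPKM in series 1.

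Complex IV held the largest rise of all. COX6B1 (aug3.g25343, scaffold 97, 856151 to 864038, minus strand), a nuclear-encoded subunit that in mammals faces the intermembrane space, had 842 and 1070 RPKM at st10, against 267 and 174 RPKM at st1. The difference was 2.13 (SE 0.44, limma adjusted p = 0.00073). COX5B (aug3.g3085), another nuclear-encoded subunit, had 266 and 235 RPKM at st10, against 111 and 103 RPKM at st1 (1.22, SE 0.21, limma adjusted p = 0.00015). It had 304 and 253 RPKM at st4, against 137 and 196 RPKM at st3 (0.76, SE 0.21, limma adjusted p = 0.01), and from st4 on it stayed between 235 and 351 RPKM. COX5A (aug3.g26962) had 321 and 325 RPKM at st10, against 180 and 144 RPKM at st1 (1.0, SE 0.36, limma adjusted p = 0.026). COX6A1 (aug3.g14813), NDUFA4 (aug3.g24031), described in the table as a cytochrome c oxidase subunit, and both COX4 models (aug3.g18381 and aug3.g23675) were higher by 1.21 to 1.29. The calls of COX5A and COX6A1 were lost without either st10 library and without 1 of the st1 libraries (0.84 and 0.81), and that of aug3.g23675 without any single library of st1 or st10, with no filter and with voom. COX6C (aug3.g7599) was not called (1.04, SE 0.84, limma adjusted p = 0.31), and ranged from 40.7 to 843 RPKM over the 20 libraries.

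**Figure D2:**
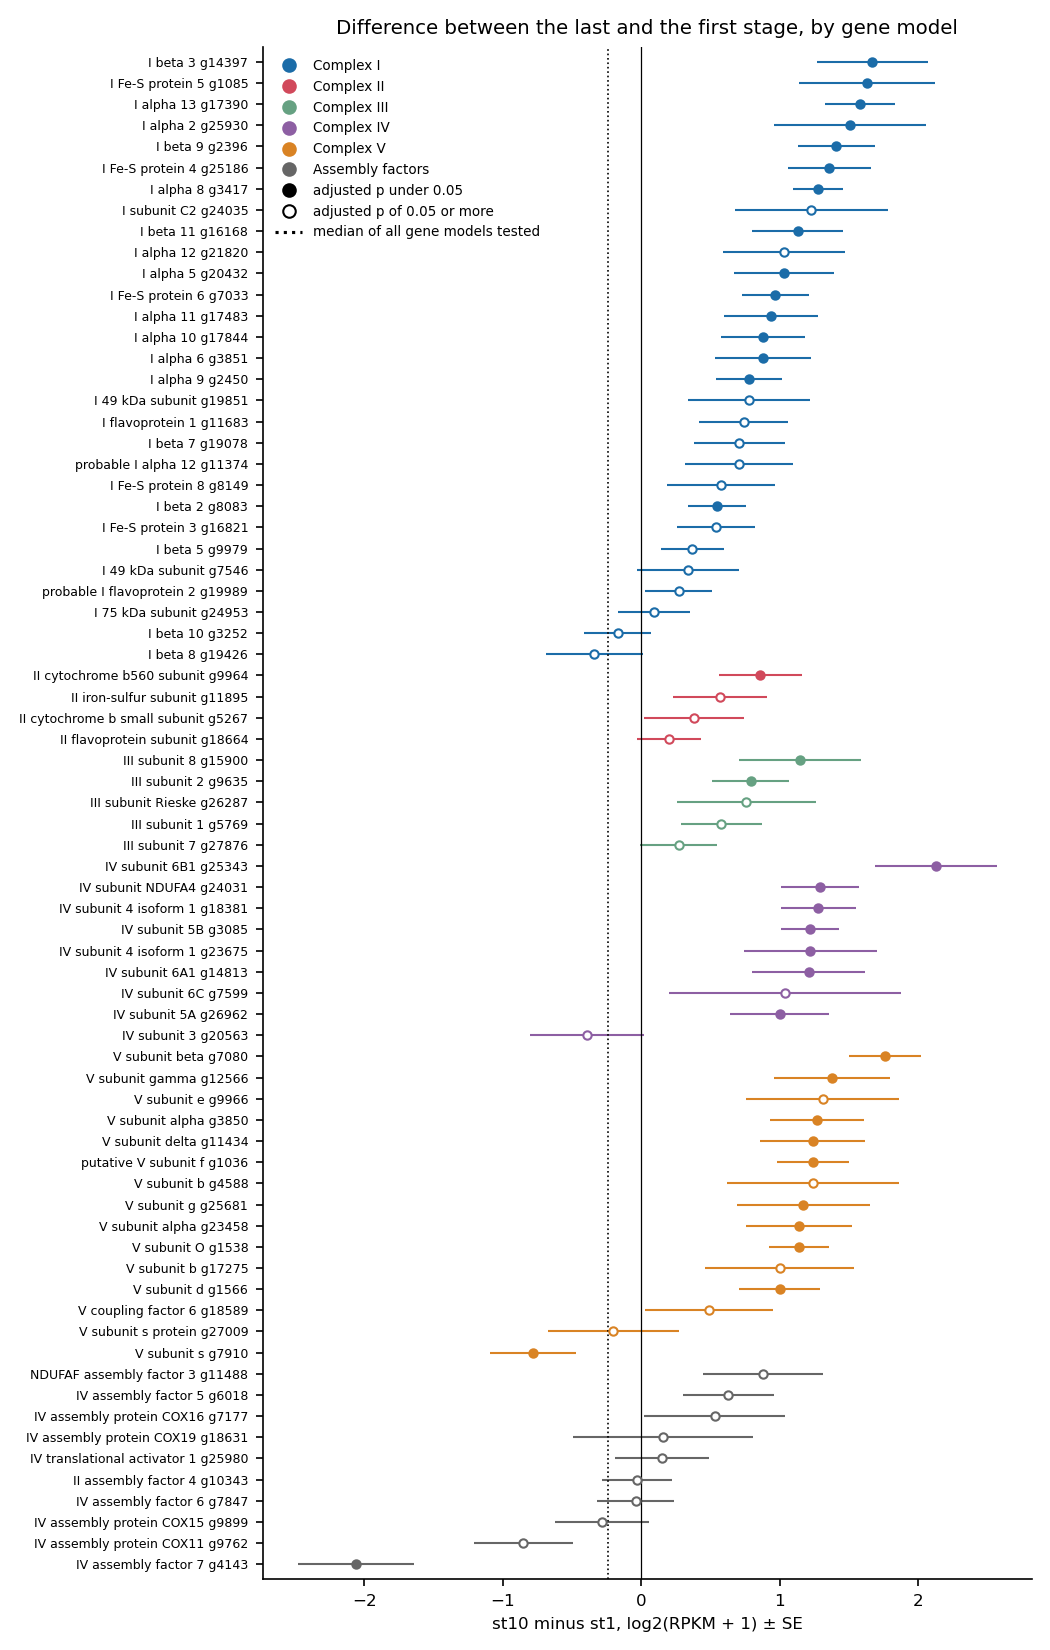
Difference between st10 and st1 for each of the 72 gene models, grouped by complex. The x axis is st10 minus st1 in log2(RPKM + 1); points are the limma estimate, bars ± 1 standard error, filled points have an adjusted p under 0.05, and the dotted line is the median of all gene models tested (-0.24). COX6B1 lies farthest to the right at 2.13 and cytochrome c oxidase assembly factor 7 farthest to the left at -2.06.

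The gene model described as COX3-like was not among the 7 complex IV gene models called higher at st10. COX3 is a core subunit, encoded in mitochondrial DNA in animals. The model (aug3.g20563, exon length 791 bases) covers scaffold 3948 from 1 to 13430 on the plus strand and is the only gene model on that scaffold; whether the scaffold is mitochondrial is not stated in the table. It was the most abundant of the 76, with a mean of 2740 RPKM, and ranked between place 1 and place 159 among all gene models in a library. Over the 10 stages in order, series 1 gave 3220, 4170, 3230, 2870, 2220, 2490, 1210, 1710, 1820 and 1690 RPKM. Series 2 gave 1970, 4540, 3440, 4920, 4510, 3700, 644, 2320, 1850 and 2200 RPKM. Both series were lowest at st6; with that stage left aside, series 2 was lowest at st8. From st7 on both lay below their own values of st2 and st3. The model differed across stages (limma F test, adjusted p = 0.0042), and was not called between st10 and st1 (difference -0.39, SE 0.41, limma adjusted p = 0.44), where the series went opposite ways.

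Within each library, the ratio of COX3-like to the sum of the other complex IV gene models removes the scaling between libraries. It was 0.664 and 0.691 at st10 in series 1 and 2, against 2.46 and 2.09 at st1. The ratio was 1.5 or more up to st3 in both series, 1.1 and 2.01 at st4, and below 1 in both series from st6 on. Across the 20 libraries Pearson's r between COX3-like and that sum was -0.03, given as a description, since the points share stages and parents. The change in the ratio was not tested.

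**Figure D3:**
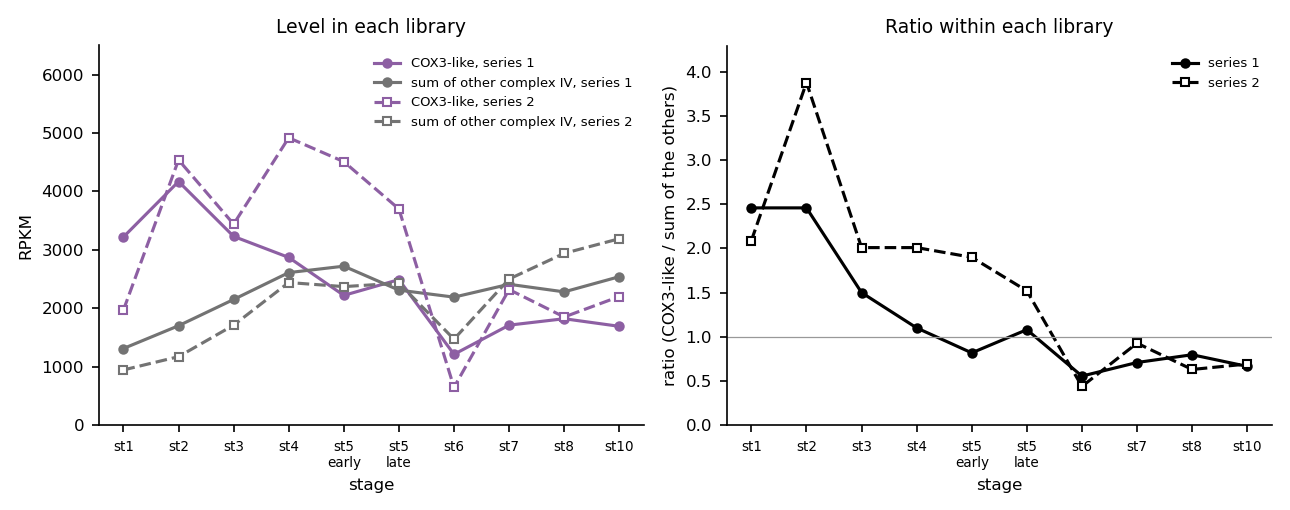
COX3-like beside the other complex IV gene models in each library. The left panel plots RPKM against stage for COX3-like (purple) and for the sum of the other complex IV models (grey), and the right panel the ratio within each library; filled circles with solid lines are series 1, open squares with dashed lines series 2. The ratio is above 2 in both series at st1 and st2 and between 0.437 and 0.927 from st6 on.

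In complex I, 15 of the 29 gene models tested were called higher at st10 than at st1 and 0 lower. The largest rise was that of NDUFB3 (aug3.g14397, beta subcomplex subunit 3, scaffold 1866, 165554 to 170554, minus strand), an accessory subunit of the membrane arm, with 93.9 and 79.4 RPKM at st10, against 30.3 and 23.2 RPKM at st1 (difference 1.67, SE 0.40, limma adjusted p = 0.0025). None of the core subunits named in the descriptions was among the 15, but this depended on the setting. With median ratios flavoprotein 1 (1.06) and iron-sulfur protein 3 (0.87) were called higher, flavoprotein 1 was also called without the st6 library of series 2, and flavoprotein 1 and iron-sulfur protein 8 were called in the fit of st1 and st10 alone. The 75 kDa subunit (aug3.g24953) had 44.1 and 38.8 RPKM at st10, against 36.1 and 41.6 RPKM at st1. Flavoprotein 1 (aug3.g11683), which oxidises NADH, had 37.3 and 36.3 RPKM at st10, against 18.8 and 24.9 RPKM at st1 (0.74, SE 0.32, limma adjusted p = 0.064). Flavoprotein 2 (aug3.g19989), the iron-sulfur proteins 3 and 8 (aug3.g16821, aug3.g8149) and the 49 kDa models (aug3.g7546, aug3.g19851) had differences of 0.27 to 0.78 that were not called. The accessory subunits called, picked by their values, included NDUFS5 (aug3.g1085), with 171 and 132 RPKM at st10, against 54.5 and 42.1 RPKM at st1. NDUFA13 (aug3.g17390) had 132 and 101 RPKM at st10, against 34.3 and 41.7 RPKM at st1. Core and accessory subunits were not tested against each other. The most abundant complex I model, NDUFB7 (aug3.g19078), was not called, with 105 and 113 RPKM at st10, against 78.3 and 55.6 RPKM at st1 (0.71), but was called without the st6 library of series 2 and with median ratios (1.05).

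Complex II, which also belongs to the tricarboxylic acid cycle, had the smallest median difference of the 5 complexes. Its cytochrome b560 subunit (aug3.g9964, scaffold 1095, 250888 to 262394, minus strand), a membrane anchor, had 121 and 126 RPKM at st10, against 74.9 and 60.9 RPKM at st1 (0.86, SE 0.30, limma adjusted p = 0.024). This only call in complex II was lost without the st1 library of series 2 (0.71) and without either st10 library (0.89 and 0.83), while the iron-sulfur subunit (0.57) gained a call without the st6 library of series 2. The flavoprotein subunit (aug3.g18664), where succinate is oxidised, had 38.1 and 37.8 RPKM at st10, against 33.9 and 31.7 RPKM at st1. In complex III, subunit 8 (aug3.g15900, scaffold 2082, 188446 to 192707, plus strand) had 128 and 123 RPKM at st10, against 76.7 and 40.5 RPKM at st1 (1.15, SE 0.44, limma adjusted p = 0.038). Its difference was 0.7 without the st1 library of series 2, and the call was lost there, without either st10 library, with no filter and in the fit of st1 and st10 alone. Subunit 2 (aug3.g9635) differed by 0.79 (SE 0.28, limma adjusted p = 0.026). The Rieske iron-sulfur subunit (aug3.g26287), which passes electrons to cytochrome c1, had 121 and 112 RPKM at st10, against 58.5 and 80.2 RPKM at st1, and was not called (0.76, SE 0.50, limma adjusted p = 0.21). It was called without the st6 library of series 2, in which it had 574 RPKM.

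Among the 10 assembly factors tested, 1 was called lower at st10 and 0 higher. Cytochrome c oxidase assembly factor 7 (aug3.g4143, scaffold 532, 405396 to 410864, plus strand) had 5.17 and 11.3 RPKM at st10, against 29.9 and 41.8 RPKM at st1. Its difference of -2.06 (SE 0.42, limma adjusted p = 0.00067) was the largest fall among the 72, and it was called lower with median-ratio scaling too (-1.73). Picked by its values, COX11 (aug3.g9762), which delivers copper to complex IV, had 10.0 and 7.65 RPKM at st10, against 19.3 and 14.2 RPKM at st1, with an adjusted p of 0.059 from limma. The remaining 8 had differences of -0.28 to 0.88, none called.

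Across all 10 stages, 47 of the 72 gene models differed (65.3%; limma moderated F test), against 79.8% of all gene models tested. These were 22 of 29 in complex I, 4 of 4 in complex II, 1 of 5 in complex III, 6 of 9 in complex IV, 8 of 15 in complex V and 6 of 10 assembly factors. Calls between single stages did not require a call by this F test. In complexes III, IV and V the F test called fewer gene models than the comparison of st10 with st1 did. With median-ratio scaling 56 of the 72 differed, and with the series as a block 57. The share of all gene models under those settings is not given here. The lowest level was at st1 for 39 gene models in series 1 and for 18 in series 2, with 15 in both; in series 2 it was at st2 for another 18. The highest level was at st10 for 16 gene models in series 1 and for 10 in series 2. In series 2 it was at st6 for 25 and at st8 for 13, and in series 1 at st6 for 5. The st6 library of series 2 is the one that stood apart. These counts of lowest and highest stages were not made for all gene models, so whether they are particular to the 72 cannot be told.

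**Figure D4:**
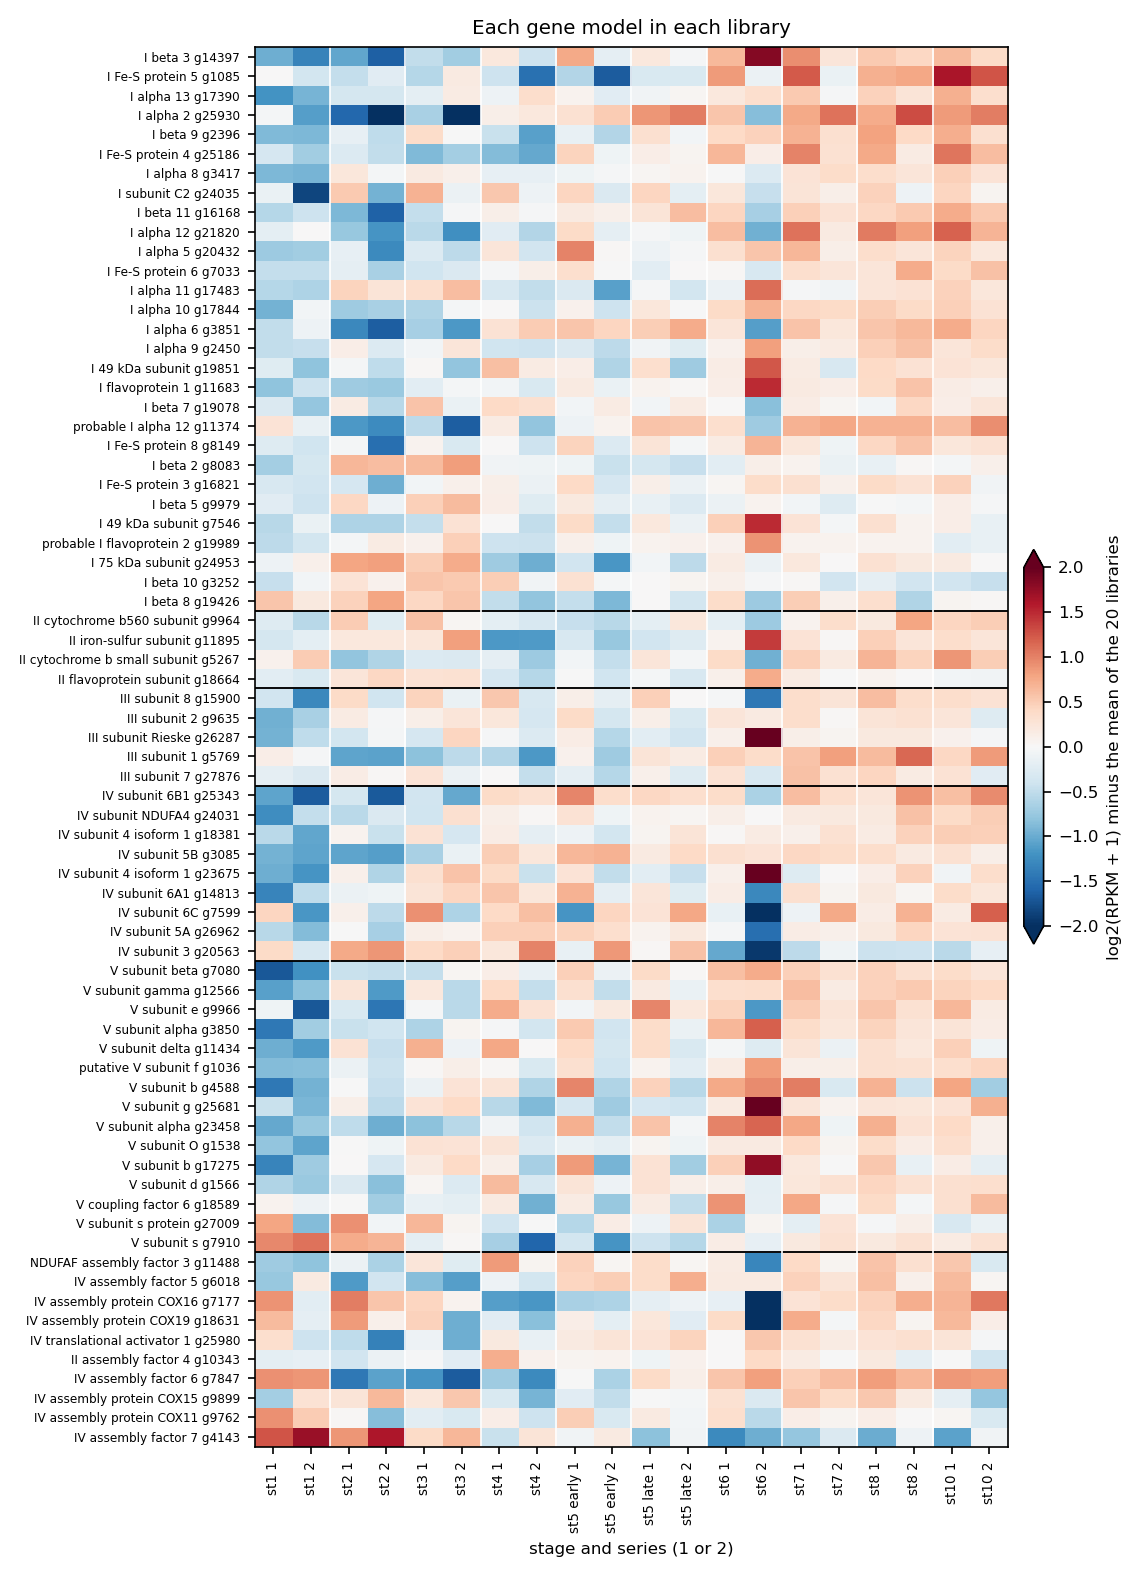
Each of the 72 gene models (rows, grouped by complex) in each of the 20 libraries (columns, by stage with series 1 left and series 2 right). Colour gives log2(RPKM + 1) minus the mean of the 20 libraries, from blue (lower) to red (higher). The st1 columns are blue for most subunits, and the st6 column of series 2 has strong red and strong blue cells next to each other.

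Changes between consecutive stages were called at 2 of the 9 steps. At st2, 7 gene models were higher than at st1 and 6 lower (9.72% and 8.33%, against 9.78% and 17.2% of all gene models tested). With median-ratio scaling the split was 13 higher and 7 lower, against 2138 higher and 2066 lower of all 13375 gene models tested. At st4, 3 were higher than at st3 and 10 lower (4.17% and 13.9%, against 8.72% and 26.5%). That split turned with the scaling: it was 8 higher and 4 lower with median ratios, against 2221 higher and 2812 lower of all 13375 gene models tested. Median ratios move the median of all gene models at this step from -0.26 to -0.01. At the other 7 steps 0 of 72 were called by limma, with 0 to 18 at an unadjusted p under 0.05. Of all gene models, 4.5% were called at st3 against st2, 1.34% at early st5 against st4, 0.867% at late against early st5, 0.606% at st6 against late st5, 0.359% at st7 against st6, 0.621% at st8 against st7 and 5.64% at st10 against st8. For the 72, limma's voom on recovered reads also called 0 there, and 1 was called at early st5 both with the series as a block and with median ratios. The counts were sensitive to single libraries: without the st1 library of series 1, 5 gene models were called at st2, and without the st3 library of series 2, 4 were called at st4. They were also 8 and 7 at st2 without its own series 1 or series 2 library. At st4 they were 8 without the st3 library of series 1 and 5 without the st4 library of series 2.

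Calls in both directions at 1 step were made in complex I at st2 (4 higher, 3 lower) and at st4 (2 higher, 5 lower), and in complex III at st2 (1 higher, 1 lower). The genes in this and the next paragraph, other than the 75 kDa and complex II subunits, and those of the comparisons with st4 and between the series further below, were picked after their values were seen. NDUFA2 (aug3.g25930), an accessory subunit of complex I, had 19.2 and 7.42 RPKM at st2, against 57.5 and 27.2 RPKM at st1 (difference -1.64, SE 0.55, limma adjusted p = 0.04). It then had 64.1 and 69.1 RPKM at st4, against 37.5 and 11.4 RPKM at st3 (1.63, SE 0.55, limma adjusted p = 0.033). NDUFA6 (aug3.g3851) moved the same way, with 10.3 and 7.82 RPKM at st2, against 18.6 and 24.7 RPKM at st1, and 32.7 and 38.5 RPKM at st4, against 16.4 and 11.4 RPKM at st3. Both kept these directions with median-ratio scaling. The opposite course was that of the 75 kDa subunit (aug3.g24953, scaffold 79, 405658 to 441565, plus strand), the largest iron-sulfur subunit of complex I. It had 67.5 and 68.7 RPKM at st2, against 36.1 and 41.6 RPKM at st1 (0.80, SE 0.26, limma adjusted p = 0.035), and 23.3 and 19.1 RPKM at st4, against 55.1 and 65.7 RPKM at st3 (-1.47, SE 0.26, limma adjusted p = 0.00049). NDUFB2 (aug3.g8083) was likewise higher at st2 (1.15) and lower at st4 (-0.81). With median ratios the differences at st4 were -1.09 for the 75 kDa subunit and -0.43 for NDUFB2, and complex I had 4 gene models called higher and 2 lower.

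In complex III the core proteins 1 and 2, which sit side by side in the complex, went opposite ways at the first step. Subunit 1 (aug3.g5769, scaffold 687, 512300 to 557390, plus strand) had 38.0 and 37.4 RPKM at st2, against 87.0 and 78.2 RPKM at st1 (-1.11, SE 0.29, limma adjusted p = 0.01). Subunit 2 (aug3.g9635) had 109 and 96.3 RPKM at st2, against 49.7 and 61.9 RPKM at st1 (0.87, SE 0.28, limma adjusted p = 0.033). Subunit 1 was called higher again at st10 than at st4, by 1.5 (SE 0.29, limma adjusted p = 0.00064). In complex II, 2 of 4 gene models were called lower at st4. The iron-sulfur subunit (aug3.g11895), which carries electrons away from the flavoprotein, had 22.6 and 22.7 RPKM at st4, against 59.8 and 90.5 RPKM at st3 (-1.66, SE 0.34, limma adjusted p = 0.0015). The flavoprotein subunit had 31.1 and 26.3 RPKM at st4, against 48.7 and 49 RPKM at st3 (-0.75, SE 0.23, limma adjusted p = 0.02). With median ratios these differences were -1.28 and -0.37, complex II had 1 call at st4, and its median was -0.28 in place of -0.66. The largest difference of the 72 at st2 was that of cytochrome c oxidase assembly factor 6 (aug3.g7847), which in humans takes part in copper delivery to complex IV. It had 2.22 and 3.15 RPKM at st2, against 15.4 and 15.0 RPKM at st1 (-2.15, SE 0.28, limma adjusted p = 5.8e-05), and was back at 14.9 and 14.6 RPKM at st10.

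Between st10 and st4, 14 gene models were higher and 1 lower (19.4% and 1.39%, against 26.7% and 16.8% of all gene models tested). Those called higher were 8 in complex I, 2 in complex II, 1 in complex III, 1 in complex V and 2 assembly factors; in complex IV 0 of 9 were called, with a median of 0.17. The largest was NDUFS5 (aug3.g1085), with 171 and 132 RPKM at st10, against 40.5 and 18.7 RPKM at st4 (2.40, SE 0.49, limma adjusted p = 0.0011). Next among complex I was NDUFS4 (aug3.g25186), with 61.9 and 45.1 RPKM at st10, against 15.4 and 13.7 RPKM at st4 (1.80). The iron-sulfur subunit of complex II had 65.3 and 60.4 RPKM at st10, against 22.6 and 22.7 RPKM at st4 (1.43, SE 0.34, limma adjusted p = 0.0032). NDUFB10 (aug3.g3252) was the 1 gene model called lower, with 31.3 and 29.5 RPKM at st10, against 58.3 and 39.3 RPKM at st4 (-0.64, SE 0.24, limma adjusted p = 0.041). Without the st10 library of series 1, 8 gene models were called.

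At st6 the 2 libraries differed in many of the 72 gene models. The series differed by at least 1 on the log2 scale in 27 of them (37.5%; 10 higher and 17 lower in series 2), against 27.5% of all gene models tested. At the other stages this held for 1 to 7 of the 72. In series 2 the Rieske subunit had 574 RPKM, against 123 in series 1, ATP synthase subunit g (aug3.g25681) had 459 RPKM against 103, and the COX4 model aug3.g23675 had 403 RPKM against 109. On the other side, COX6C in series 2 had 40.7 RPKM, against 332 in series 1. The gene models that were higher by at least 1 had a median exon length of 717 bases, those lower by at least 1 had 658 bases, and the rest 801 bases. The median-ratio size factor of this library was 0.668, against 0.806 to 1.28 in the others. Whether depth, the share of reads on gene models or size scaling played a part was not tested. Without this library, more of the 72 were called across stages and between st10 and st1. Leaving out the st6 library of series 1 instead raised the calls between st10 and st1 by as many. That gain was therefore not particular to the series 2 library. For the single gene models that gained a call without the series 2 library, the fit without that of series 1 is not given here. With the st6 library of series 2 as the only one of its stage, some of the 72 were called around st6. These calls were at st6 against late st5 and at st7 against st6, in place of 0 and 0. The share of all gene models called in that fit is not given here, so they cannot be read as particular to the 72.

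**Figure D5:**
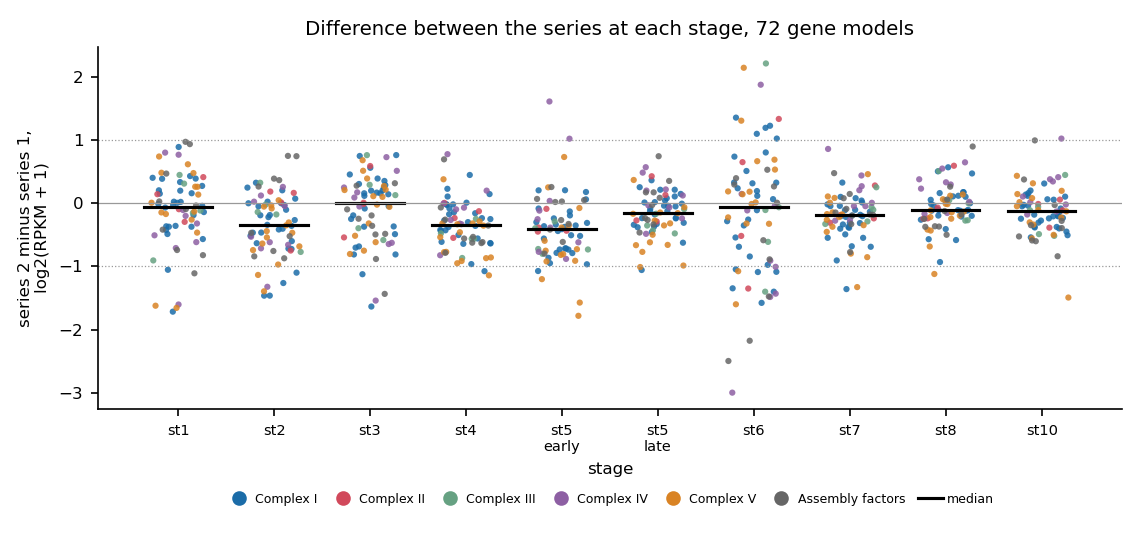
Series 2 minus series 1 at each stage. The x axis is the stage and the y axis the difference in log2(RPKM + 1); each point is 1 of the 72 gene models, coloured by complex and spread sideways at random, black bars are medians, and dotted lines mark differences of 1. The spread is widest at st6, where 27 points lie on or beyond the dotted lines.

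With stage as a factor, 13 of the 72 gene models differed between the series, 1 higher and 12 lower in series 2 (1.39% and 16.7% of 72, against 2.51% and 7.95% of all gene models tested). With median-ratio scaling 5 were called. The 1 higher was cytochrome c oxidase assembly factor 7 (0.59, limma adjusted p = 0.0039), and series 2 was above series 1 at every stage. The largest difference downwards was that of COX19 (aug3.g18631), with -0.86 (SE 0.18, limma adjusted p = 0.01), followed by NDUFC2 (aug3.g24035), with -0.77 (SE 0.14, limma adjusted p = 0.0048). NDUFC2 was lower in series 2 at every stage, for example at st1 with 19.4 RPKM against 66 RPKM. Series and pair of parents cannot be told apart here.

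For 10 subunits or factors the table held 2 gene models. In 6 of these pairs both models carried the same gene identifier, and the uniqueness filter on alignments could have split or removed reads between them. The 49 kDa models had 17.1 (aug3.g7546) and 3.86 (aug3.g19851) RPKM on average, and the models of subunit b 252 and 144 RPKM, with a Pearson r of 0.86 between them over the 20 libraries. Pairs with different identifiers included the alpha models aug3.g3850 and aug3.g23458, at 174 and 17.2 RPKM (r = 0.91). The alpha models of ATP synthase followed the rest of complex V (r = 0.83 and 0.82 with the mean of the other subunits), whereas the s models did not (-0.2 and -0.23). The COX4 models differed in their r with the rest of complex IV, 0.65 for aug3.g18381 and -0.02 for aug3.g23675. Between these 2 models r was 0.56. The highest value of aug3.g23675, 403 RPKM, was that of the st6 library of series 2. All these correlations are descriptions over 20 libraries that share stages and parents.

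The alpha gene of ATP synthase and NDUFA6 are neighbours on scaffold 506. They lie on opposite strands (229916 to 260274, minus, and 260756 to 273169, plus) with 481 bases between them, and no other gene model in the gap. Their levels parted at the first step: alpha had 118 and 122 RPKM at st2, against 59.4 and 99.9 RPKM at st1, while NDUFA6 was lower at that step. At st10 both were above st1 in both series, NDUFA6 with 45.0 and 36.2 RPKM, against 18.6 and 24.7 RPKM. Over the 20 libraries, the st6 library of series 2 included, r was 0.26.

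Of the gene models the choice had left out, cytochrome c1 (aug3.g3846), the heme subunit of complex III, had 122 and 94.7 RPKM at st10, against 99.7 and 97.0 RPKM at st1 (0.13, SE 0.18, limma adjusted p = 0.57). The ATP synthase lipid-binding protein (aug3.g26162), which forms the rotor ring, had 396 and 308 RPKM at st10, against 99.0 and 177 RPKM at st1 (1.39, SE 0.37, limma adjusted p = 0.0048). Cytochrome c (aug3.g13715), the mobile carrier between complexes III and IV, had 403 and 360 RPKM at st10, against 158 and 208 RPKM at st1 (1.06, SE 0.21, limma adjusted p = 0.00055). At st2 it was at 48.2 and 38.1 RPKM, below every other stage in both series.

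Lists of neighbouring parts of energy metabolism, taken from the descriptions, had medians of -1.14 to 0.47 between st10 and st1, against 0.88 for the 72 and -0.24 for all gene models. The counts below stand beside 23.2% higher and 34.9% lower among all gene models tested. Of 23 gene models of the tricarboxylic acid cycle tested, 8 were higher (34.8%) and 4 lower (17.4%), with a median of 0.47; the list also takes in ATP-citrate synthase and cytoplasmic isocitrate dehydrogenase. Of 21 gene models of glycolysis, 1 was higher and 12 lower (4.76% and 57.1%), with a median of -1.14; the match on enolase also takes in enolase-phosphatases, and the match on hexokinase a ketohexokinase. Among 8 gene models of electron carriers and ATP exchange, 3 were higher and 3 lower (median -0.3). The ADP/ATP translocase aug3.g20599, which exports ATP from mitochondria, was higher by 2.0 (SE 0.4, limma adjusted p = 0.00062), at a mean of 491 RPKM. The 3 lower were also ADP/ATP translocase models, aug3.g20600 (-1.29), aug3.g20601 (-3.27) and aug3.g8016 (-1.59). Their means were 6.48, 9.73 and 1.33 RPKM. The V-type proton ATPase, a separate pump of other membranes, had 1 higher and 1 lower of 13 (median -0.03). Mitochondrial genome upkeep and transcription had 0 higher and 3 lower of 7 (42.9% lower, median -0.41), and mitochondrial import 4 higher and 2 lower of 16 (25% higher, 12.5% lower, median 0.05). Against st4, glycolysis had 13 higher and 1 lower of 21 at st10 and the V-type ATPase 8 higher and 1 lower of 13. The tricarboxylic acid cycle had 12 higher and 4 lower of 23, and electron carriers and ATP exchange 4 higher and 2 lower of 8. Mitochondrial genome upkeep and transcription had 0 higher and 2 lower of 7, and mitochondrial import 0 higher and 8 lower of 16. The respiratory chain and ATP synthase had 14 higher and 1 lower of 72, and all gene models 26.7% higher and 16.8% lower. No test compared the lists. Gene models described as troponin, paramyosin or muscle myosin heavy chain, followed because muscle is rich in mitochondria, summed to 3.03 and 2.99 RPKM at st10, against 44.5 and 35.9 RPKM at st1, for 13 models of which 6 passed the filter. Their part in the results was not tested.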

How the data were processed

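Whole embryos of 10 stages and 2 pairs of parents gave 20 libraries. After trimming, the authors used BLAT against Ptep_1.0, kept alignments that passed a filter on coverage, identity and uniqueness, ran htseq-count (HTSeq 0.6.1p1, strand-aware) with the AUGUSTUS models, and deposited RPKM values. The table has 0 columns of values beyond the 20 libraries. The coverage tracks were not used here.

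Read totals (9160802 to 17019009) and exon lengths, for 75 of the 76 gene models, were recovered from the RPKM values; intervals and floors of 3 reads cover counting error only. RPKM are not counts, so limma 3.58.1 in R 4.3.3 (lmFit, eBayes with trend) was run on log2(RPKM + 1) for gene models reaching 1 RPKM in 2 or more samples, and p-values were adjusted by Benjamini-Hochberg over 13375 gene models. One fit of the 10 stage means (10 residual degrees of freedom) gave a moderated F test, the 9 consecutive steps, st10 minus st1 and st10 minus st4. The difference of series 2 from series 1 came from a fit that also held the stages. Fold changes on this scale understate those of low genes. The script was tested on simulated data.

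The replicate number names the pair of parents and so pairs the samples. Series differences correlated between stages at a median of 0.24 (-0.06 to 0.7, over 0.1 in 37 of 45 stage pairs). Alternatives were median-ratio scaling, a smaller pseudocount (0.1), filters of 5 RPKM or none, the series as a block, fits restricted to st1 and st10, no stage term, and leaving out each library, where the lone sample of a stage was taken to vary like the others. The voom weights of limma on recovered reads were added after the data were seen.

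The members and gene lists were chosen with earlier results of these data known. Named genes were core subunits, the most abundant and the most changed model of each complex, gene models with a second copy and those under the filter; all others, NDUFA4 and coupling factor 6 among them, were named after their values were seen. The translational activator of cytochrome c oxidase 1 was put with the assembly factors by hand. Subunit symbols such as NDUFA6 stand for the subunit names in the descriptions. Of the 76 gene models, 70 had a first gene identifier listed by RefSeq (CAS_Ptep_4.0); its coordinates were not taken. Plots and sums used Python 3.11.15, pandas 2.3.3 and matplotlib 3.10.9.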

Additional observations from a re-analysis of the deposited data

Results flagged for a closer look

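The series moved in opposite directions between st10 and st1 in 12 of the 72 gene models, and in 1865 of all 13375 gene models tested. For the 6 of these 12 that are named by rule the values follow. The difference between the series was not tested. ATP synthase subunit s-like (aug3.g27009) differed by 0.73 in series 2 and -1.12 in series 1 on the log2 scale. COX6C (aug3.g7599) differed by 2.35 in series 2 and -0.27 in series 1. COX3-like (aug3.g20563) differed by 0.16 in series 2 and -0.93 in series 1. The 75 kDa subunit of complex I (aug3.g24953) differed by -0.1 in series 2 and 0.28 in series 1. The cytochrome b small subunit of complex II (aug3.g5267) differed by -0.02 in series 2 and 0.78 in series 1, and the 49 kDa model aug3.g7546 by -0.02 in series 2 and 0.69 in series 1. None of the 6 was called between st10 and st1.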

How the results depend on the processing

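With median-ratio scaling, 20 gene models were called at st2 against st1, 1 at early st5 against st4 and 5 between the series; without a stage term 0 were called between the series. Median ratios gave ratios of summed levels at st10 over st1 of 2.35 in complex I, 1.92 in complex II, 2.03 in complex III and 2.92 in complex V. Without its most abundant gene model the ratio was 1.33 in complex II and 2.54 in complex IV. Leaving out single libraries gave 5 to 18 calls at st2, 0 to 2 at st3, 4 to 17 at st4, 0 to 28 at st6, 0 to 27 at st7, 17 to 44 between st10 and st1 and 8 to 19 between st10 and st4; the st10 library of series 1 gave the 17 and the 8, and leaving out the st6 library of series 1 gave the 28 and the 27. With the series as a replicate block, 57 gene models differed across stages, and 19 were called at st2, 16 at st4, 1 at early st5, 42 between st10 and st1 and 16 between st10 and st4; of the genes named by rule, subunit b (aug3.g4588, 1.24) and NDUFA12-like (aug3.g21820, 1.03) gained a call at st10 against st1, and no other call of theirs changed. The difference of the 75 kDa subunit (aug3.g24953) between st10 and st1 was -0.01 to 0.19 when single libraries were left out. That of subunit s-like (aug3.g27009) was 0.13 with median ratios and -1.02 to 0.63 without single libraries. The causes were not tested. Of the alternatives for single gene models, 427 kept direction and call, 48 lost the call, 19 gained one and 3 changed direction. A sample left alone at its stage was taken to vary like the others. With 2 samples a stage, the 10 residual degrees of freedom limit the precision.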
